A study of Homo sapiens with 6 samples.

Results

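The 35 genes described here build the contacts, the keratin skeleton and the apical-basal polarity of epithelial cells. They were listed by name for their roles, with earlier results of these data known, and found by gene identifier among the 61860 genes of the deposited count table. They comprise 10 tight junction membrane proteins, 5 tight junction scaffold proteins, 9 desmosome and plakin proteins, 4 simple keratins, 4 polarity proteins, 2 catenins and the adhesion molecule EPCAM. Of the 35 genes, 30 had enough reads to be tested and 5 had not (CLDN7, CLDN10, OCLN, CXADR and EPCAM).

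RNA was sequenced from A498, a human cell line derived from a clear cell carcinoma of the kidney, in 2 groups of 3 libraries. PTPRZ-Si is the knockdown of PTPRZ1, a receptor protein tyrosine phosphatase, by siRNA according to the labels. PTPRZ-nc is its control, for which the labels name a plasmid instead. Since the reagents named differ between the groups, an effect of the knockdown cannot be told apart from an effect of the reagent. Both groups were the same line in the same medium with serum, no allele or drug sets them apart in the labels, and nothing says whether the 3 libraries of a group came from separate cultures, so that a p-value here sets a difference against the spread of libraries, which may be technical.

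Epithelial cells are sealed to each other by tight junctions, in which claudins span the gap between neighbouring membranes and decide which ions pass, while ZO and cingulin proteins tie them to actin. Desmosomes below them join the keratin filaments of adjacent cells through desmosomal cadherins, plakoglobin, plakophilins and desmoplakin. PAR and Crumbs complexes mark the apical side. In the kidney tubule each segment is known for its own set of claudins, and the tubule is lined by a simple epithelium whose keratins are mainly keratin 8 and keratin 18.

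Total counts were 14407846, 21003207 and 21469746 in PTPRZ-Si, against 17083498, 13726908 and 18609477 in PTPRZ-nc. PTPRZ1 itself had 0 counts in all 6 libraries, which allows up to 0.0527 CPM (library-size-scaled counts) in PTPRZ-Si and up to 0.0607 CPM in PTPRZ-nc at 3 counts over each group, so the knockdown could not be checked. PTPRZ-nc library 2 stood farthest from the others of its group (chi-square per degree of freedom of 5.25 and 6.23, against 2.67 for the other PTPRZ-nc pair and 2.19 to 3.47 in PTPRZ-Si). Kidney carcinoma and tubule markers summed to 1610 to 1702 CPM in PTPRZ-Si and 1632 to 1768 CPM in PTPRZ-nc, with 0 of 10 at 0 and 2 of 10 (NDUFA4L2 and LRP2) under 1 CPM. The even sums hid changes in both directions. In the test described below, 4 of 8 tested markers were higher and 1 was lower in PTPRZ-Si. These are 62.5% of the tested markers, against 27.4% of all tested genes. PAX8 averaged 555 CPM in PTPRZ-Si and 313 CPM in PTPRZ-nc, CDH6 154 and 73.9 CPM, and VIM 787 and 1179 CPM. Other cell types left few reads. The leukocyte markers PTPRC and CD3E and the endothelial marker CDH5 were at 0, and 6 of 7 fibroblast markers were under 1 CPM, COL1A1 being the exception. Fibroblast markers summed to 21.6 to 23.7 CPM in PTPRZ-Si and 31.4 to 41.6 CPM in PTPRZ-nc, endothelial markers to 1.59 to 2.02 CPM in PTPRZ-Si and 1.12 to 1.17 CPM in PTPRZ-nc, and leukocyte markers to 0.958 to 1.46 CPM in PTPRZ-Si and 0.639 to 1.02 CPM in PTPRZ-nc. Their part in the results was not tested.

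The junction genes did not move as a block. Of the 30 tested genes, 10 were higher and 7 were lower in PTPRZ-Si, and 13 did not pass (edgeR's quasi-likelihood test, Benjamini-Hochberg adjusted p of at most 0.05 over 15476 tested genes). The 17 called genes are 56.7% of those tested, while 27.4% of all tested genes were called, 14% higher and 13.4% lower. Most of these genes are well expressed, and in a fit of only the genes averaging at least 5 CPM the shares were 60.9% (14 of 23) and 37.1%: 8 were higher and 6 lower, against 19.3% and 17.8% of all genes in that fit. Their median log2 fold change was 0.03, against 0.00 for all tested genes, and the median of its absolute size was 0.26, against 0.18. At a change of at least 1.5-fold, 4 genes were higher (CLDN2, TJP3, CGNL1 and KRT19) and 1 was lower (F11R), where 2.94% and 1.78% of all tested genes passed in each direction. In the fit of genes averaging at least 5 CPM, 2 were higher and 1 was lower at that size, against 2.09% and 1.56% of all genes. In 17 of the 30 genes the libraries of the groups did not overlap, against 40.8% of all tested genes.

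**Figure D1:**
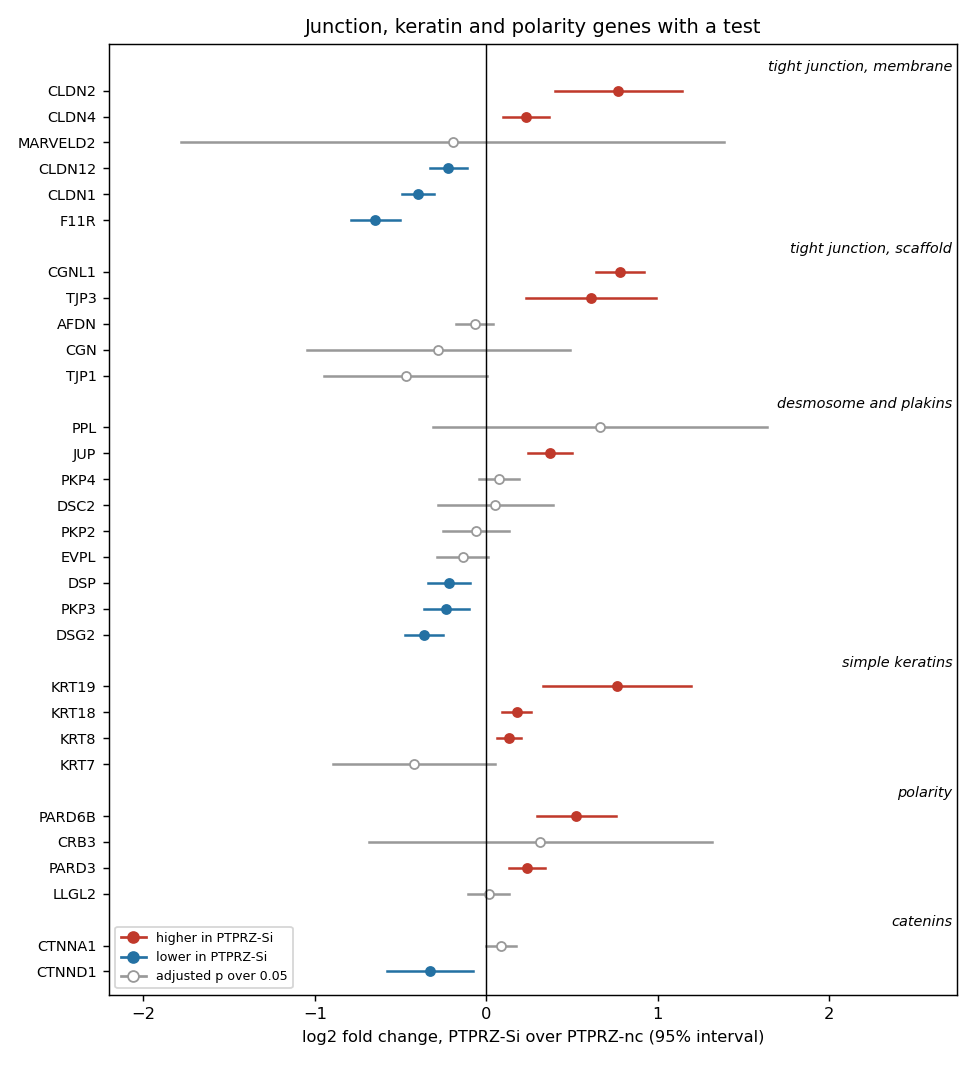
Log2 fold change of PTPRZ-Si over PTPRZ-nc for the 30 tested genes, by structure (points, with 95% intervals from edgeR; filled points passed an adjusted p of 0.05). Tight junction and desmosome genes lie on both sides of 0, while all called keratin and polarity genes lie to the right of it.

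The claudins, the membrane proteins that form the tight junction seal, changed in opposite directions. CLDN1, a barrier-forming claudin (chr3:190305701-190322475, minus strand, GRCh38), had 253, 266 and 249 CPM in PTPRZ-Si, against 337, 322 and 353 CPM in PTPRZ-nc. Every PTPRZ-Si library was below every PTPRZ-nc library (log2 fold change -0.40 ± 0.045 SE, edgeR adjusted p = 3.9e-06). CLDN2, which forms a channel for cations and water and is typical of the proximal tubule (chrX:106900164-106930861, plus strand), had 11.3, 10.0 and 13.2 CPM in PTPRZ-Si, against 7.81, 4.38 and 7.72 CPM in PTPRZ-nc. The groups did not overlap, and PTPRZ-nc library 2 was the lowest (log2 fold change 0.77 ± 0.18 SE, edgeR adjusted p = 0.00315). CLDN4, a claudin of the distal tubule and collecting duct that limits the passage of sodium, had 50.4, 51.0 and 48.0 CPM in PTPRZ-Si, against 42.9, 44.1 and 40.5 CPM in PTPRZ-nc. Its change was small, 0.23 ± 0.063 on the log2 scale (edgeR adjusted p = 0.011), and it missed the threshold without PTPRZ-Si library 2 or PTPRZ-nc library 3 (adjusted p = 0.0551 and 0.0517). CLDN12, a widely expressed claudin, had 69.0, 72.2 and 69.0 CPM in PTPRZ-Si, against 80.8, 82.8 and 81.7 CPM in PTPRZ-nc. It was lower by a small amount, with no overlap (log2 fold change -0.22 ± 0.051 SE, edgeR adjusted p = 0.00341).

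The make-up of the claudins therefore differed as well as their sum. Per length, these 6 claudins together had 413 ± 8.26 TPM (counts scaled by exon length and library size) in PTPRZ-Si and 509 ± 21.6 TPM in PTPRZ-nc (SD, n = 3 each). This sum leaves out the claudins outside the 35 genes. Among those, CLDN23 had 38.8 ± 3.68 TPM in PTPRZ-Si and 46.3 ± 1.72 TPM in PTPRZ-nc. CLDN15 had 19.5 ± 1.48 TPM in PTPRZ-Si and 20.8 ± 0.0956 TPM in PTPRZ-nc. Neither passed (edgeR adjusted p = 0.063 and 0.6), and the shares below are of the 6 only. CLDN1 made up 73.9%, 74.5% and 73.5% of that sum in PTPRZ-Si, against 79.6%, 79.1% and 80.5% in PTPRZ-nc. CLDN4 supplied 11.2% ± 0.226 in PTPRZ-Si and 7.84% ± 0.623 in PTPRZ-nc, and CLDN2 supplied 3.58% ± 0.587 in PTPRZ-Si and 1.68% ± 0.454 in PTPRZ-nc (SD, n = 3). Within a library, where the scaling of libraries plays no part, the ratio of CLDN2 to CLDN1 was 0.0479, 0.0404 and 0.0569 in PTPRZ-Si, against 0.0249, 0.0146 and 0.0235 in PTPRZ-nc. The lowest PTPRZ-Si library was thus above the highest PTPRZ-nc library, and the mean ratio was 2.3 times as high. For CLDN4 to CLDN1 the ratio was 0.155, 0.149 and 0.150 in PTPRZ-Si, against 0.0991, 0.107 and 0.0893 in PTPRZ-nc, which is 1.54 times as high. These ratios were not tested. They follow from the fold changes above.

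**Figure D2:**
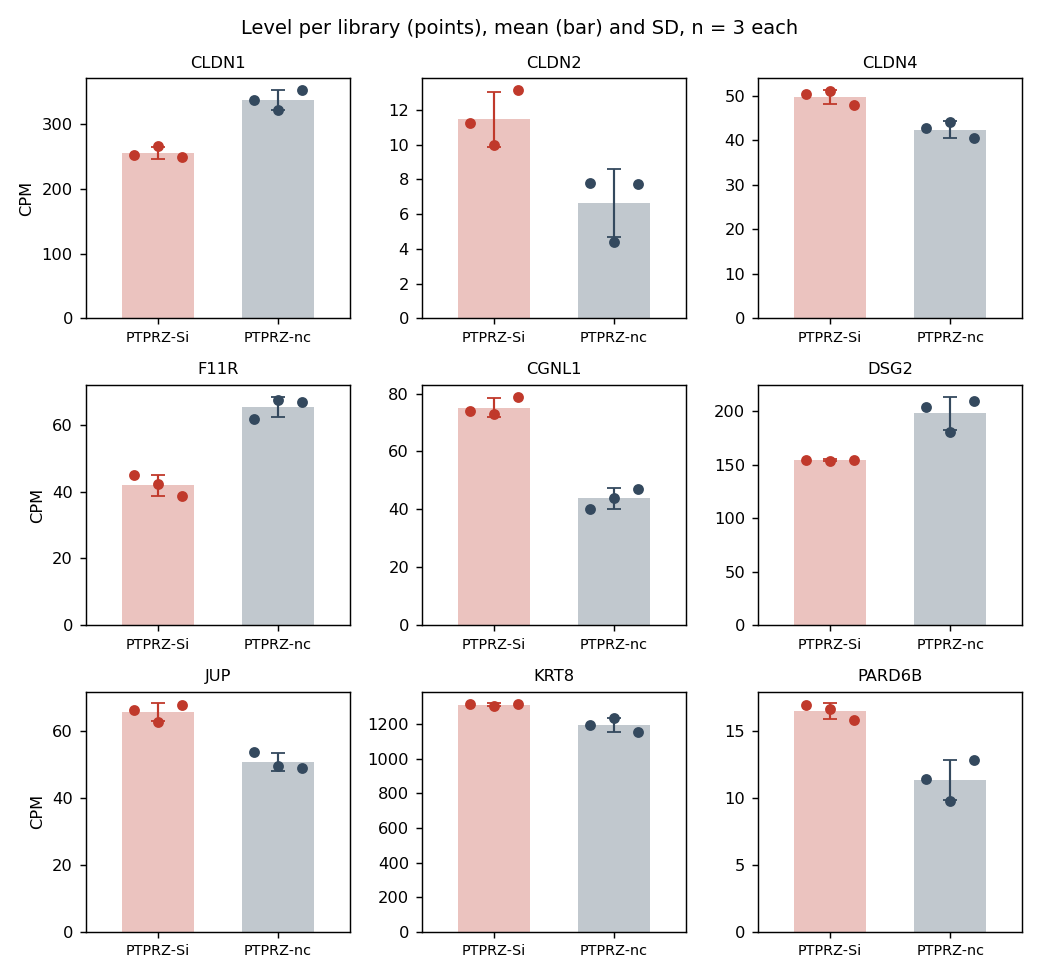
Level of 9 genes in each library (points, CPM scaled by TMM) with the group mean (bar) and SD, n = 3 each. CLDN1, F11R and DSG2 are lower in all 3 PTPRZ-Si libraries, and the other 6 genes are higher in all 3.

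F11R, the junctional adhesion molecule A, an immunoglobulin-type protein that recruits PAR3 to young contacts (chr1:160995211-161021348, minus strand), had the strongest fall of the 30 genes. It had 45.0, 42.2 and 38.8 CPM in PTPRZ-Si, against 62.0, 67.7 and 66.9 CPM in PTPRZ-nc. The PTPRZ-Si libraries were all below the PTPRZ-nc libraries (log2 fold change -0.65 ± 0.067 SE, edgeR adjusted p = 1.47e-06). Another annotated gene overlaps 36.6% of the exon bases of F11R, and that gene held 37 counts over the 6 libraries. MARVELD2, tricellulin, which seals the corners where 3 cells meet, was scarce and erratic: 0.905, 0.0958 and 1.07 CPM in PTPRZ-Si and 0.175, 0.146 and 1.86 CPM in PTPRZ-nc. Its estimate had a 95% interval of -1.78 to 1.39 on the log2 scale, and no difference was detectable at this depth.

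The untested membrane genes had few reads. Occludin, OCLN, a membrane partner of the claudins, had 4, 9 and 38 counts in PTPRZ-Si, against 8, 2 and 22 counts in PTPRZ-nc. CLDN7 had 3, 5 and 8 counts in PTPRZ-Si, against 5, 9 and 6 counts in PTPRZ-nc, and CLDN10, a claudin of the thick ascending limb, had 2, 23 and 4 counts in PTPRZ-Si, against 3, 2 and 10 counts in PTPRZ-nc. EPCAM, the epithelial cell adhesion molecule, had 12 counts summed over PTPRZ-Si and 7 over PTPRZ-nc. In each of these genes the groups overlapped. CXADR, the coxsackievirus and adenovirus receptor of tight junctions, was at 0 in all 6 libraries, where 0 counts allow up to 0.0282 CPM over all of them. Its annotated neighbour BTG3, 74 bases away, had 1 count, and C21orf91, 195 kb away, had 787. Genes that nearly every cell uses were also scarce in this table, such as CDC42, a small GTPase of cell polarity with 0.597 ± 0.278 CPM in PTPRZ-Si and 0.956 ± 0.139 CPM in PTPRZ-nc (SD, n = 3), so a gene at or near 0 is not shown to be silent, and the cause was not tested.

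Under the membrane, 2 of the 5 scaffold genes were higher and 0 were lower. CGNL1, paracingulin, which links tight and adherens junctions to actin and microtubules (chr15:57375967-57550727, plus strand), had 73.8, 72.8 and 79.0 CPM in PTPRZ-Si, against 40.1, 44.1 and 47.2 CPM in PTPRZ-nc. This was the clearest change of the 30 genes, with 0.78 ± 0.066 on the log2 scale and the smallest adjusted p (edgeR, 1.58e-07), and the groups lay far apart. TJP3, or ZO-3, one of the scaffold proteins that bind claudin tails, had 4.87, 5.37 and 4.81 CPM in PTPRZ-Si, against 2.92, 3.50 and 3.46 CPM in PTPRZ-nc. Its libraries did not overlap (log2 fold change 0.61 ± 0.18 SE, edgeR adjusted p = 0.017), but the call was lost without PTPRZ-Si library 2 or PTPRZ-nc library 1 (adjusted p = 0.0686 in each), without both libraries numbered 2 (0.0548) and with DESeq2 (0.0568).

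The other scaffold genes did not pass. TJP1, or ZO-1, the founding member of the family, had 7.72, 5.03 and 6.26 CPM in PTPRZ-Si, against 9.51, 11.6 and 5.27 CPM in PTPRZ-nc. PTPRZ-nc library 3 lay among the PTPRZ-Si libraries, and the log2 fold change was -0.47 ± 0.23 SE (edgeR adjusted p = 0.139). It rested on single libraries: it was -0.75 without PTPRZ-nc library 3 (adjusted p = 0.00687), -0.23 without PTPRZ-nc library 2 (0.446) and -0.085 without both libraries numbered 2 (0.808), and it passed with no filter on low counts (0.0241). CGN, cingulin, the close relative of CGNL1, was near 1 CPM and overlapped: 0.974, 1.15 and 1.26 CPM in PTPRZ-Si and 1.05, 2.26 and 0.959 CPM in PTPRZ-nc. Its log2 fold change was -0.28 ± 0.36 SE and its sign turned without PTPRZ-nc library 2, where it was 0.18. AFDN, afadin, which joins nectins to actin, averaged 98.8 ± 3.81 CPM in PTPRZ-Si and 104 ± 3.67 CPM in PTPRZ-nc (SD, n = 3), with a 95% interval of -0.18 to 0.04 on the log2 scale.

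In the desmosome, the linker plakoglobin was higher, while its partners DSG2, DSP and PKP3 were lower and DSC2 and PKP2 did not pass. JUP, plakoglobin, the catenin shared by desmosomes and adherens junctions (chr17:41754604-41786931, minus strand), had 66.2, 62.7 and 67.9 CPM in PTPRZ-Si, against 53.7, 49.4 and 48.9 CPM in PTPRZ-nc. It was higher in every PTPRZ-Si library (log2 fold change 0.37 ± 0.061 SE, edgeR adjusted p = 0.000193). DSG2, desmoglein 2, the desmosomal cadherin of simple epithelia (chr18:31498043-31549008, plus strand), had 155, 154 and 155 CPM in PTPRZ-Si, against 204, 180 and 210 CPM in PTPRZ-nc. The PTPRZ-Si libraries hardly differed from each other and lay below all of PTPRZ-nc (log2 fold change -0.36 ± 0.052 SE, edgeR adjusted p = 6.02e-05). DSP, desmoplakin, which anchors keratin to the plaque, had 58.6, 55.3 and 56.1 CPM in PTPRZ-Si, against 65.9, 69.1 and 62.7 CPM in PTPRZ-nc. PKP3, plakophilin 3, a plaque protein of the outer dense region, had 79.9, 77.7 and 88.2 CPM in PTPRZ-Si, against 94.3, 105 and 90.9 CPM in PTPRZ-nc. Both were lower with no overlap (log2 fold changes -0.22 ± 0.058 and -0.23 ± 0.062 SE, edgeR adjusted p = 0.00967 and 0.00982), and PKP3 was no longer called without PTPRZ-Si library 2 (adjusted p = 0.0583) or without both libraries numbered 2 (0.0819).

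Set against DSP and DSG2 within a library, JUP stood higher in all of PTPRZ-Si. The TPM ratio of JUP to DSP was 2.31, 2.31 and 2.47 in PTPRZ-Si, against 1.66, 1.46 and 1.59 in PTPRZ-nc. The TPM ratio of JUP to DSG2 was 0.536, 0.511 and 0.549 in PTPRZ-Si, against 0.330, 0.343 and 0.292 in PTPRZ-nc. Neither pair overlapped, and the mean ratios were 1.5 and 1.65 times as high. These ratios were not tested and follow from the fold changes above.

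The other 5 desmosome and plakin genes did not pass. DSC2, desmocollin 2, the second desmosomal cadherin, had 5.36, 5.46 and 4.90 CPM in PTPRZ-Si, against 5.42, 4.74 and 4.95 CPM in PTPRZ-nc. These overlapped, with a 95% interval of -0.28 to 0.39 for the log2 fold change. PKP2, the plakophilin of simple epithelia, averaged 23.2 ± 2.04 CPM in PTPRZ-Si and 24.2 ± 2.48 CPM in PTPRZ-nc, and PKP4, a plakophilin relative found at adherens junctions, 104 ± 3.47 CPM in PTPRZ-Si and 98.9 ± 7.16 CPM in PTPRZ-nc (SD, n = 3). EVPL, envoplakin, averaged 45.1 ± 3.21 CPM in PTPRZ-Si and 49.7 ± 3.31 CPM in PTPRZ-nc. PPL, periplakin, its partner in the cornified envelope of skin, was under 1.3 CPM in every library and had a 95% interval of -0.31 to 1.64 on the log2 scale.

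The same promoter letters were found in called and uncalled genes. RefSeq promoter sequences (GRCh38.p14, the 250 bases before a RefSeq start, which can lie inside a gene with several starts) were at hand for 21 of the 35 genes, as 35 promoters, and were searched on both strands for the E-box letters CACCTG and their reverse complement, which Snail and ZEB repressors of junction genes are known to bind. The letters were present in 11 of these 35 promoters (31.4%), against 17.5% of 35116 promoters of all genes. Among called genes they were found for DSG2, DSP, JUP and TJP3, so on genes that were lower and on genes that were higher. They were also found for AFDN, CLDN7, CRB3, DSC2, OCLN and TJP1, which did not pass or were not tested. JUP and TJP3 each had a pair of promoters in the table, and their matches lay before the start inside the gene, while the promoter at the outer start held none. For DSG2 and DSP, 30 bases around the match farthest from the gene start are shown, on the strand of the gene, with the match in capitals.
DSG2, chr18:31497933-31497962, plus strand: acgtcacggtccCAGGTGcgagtgcgagcg
DSP, chr6:7541481-7541510, plus strand: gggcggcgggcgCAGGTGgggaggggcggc
A match describes letters and is not a binding site. The promoters of the called genes CLDN1, CLDN2, CLDN4, CLDN12, CGNL1 and KRT8 held no match in the window searched, and nothing about a factor follows from that.

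Of the 4 simple keratins, 3 were higher, and KRT8 and KRT18 were the most abundant of the 35 genes. KRT8, keratin 8 (chr12:52897187-52949954, minus strand), had 1314, 1304 and 1319 CPM in PTPRZ-Si, against 1194, 1238 and 1157 CPM in PTPRZ-nc. KRT18, keratin 18, its obligate partner in the filament (chr12:52948871-52952901, plus strand), had 393, 377 and 377 CPM in PTPRZ-Si, against 330, 352 and 332 CPM in PTPRZ-nc. Neither gene overlapped between groups, and both changes were small (log2 fold changes 0.13 ± 0.034 and 0.18 ± 0.041 SE, edgeR adjusted p = 0.00655 and 0.00326). Within a library the TPM ratio of KRT8 to KRT18 was 1.56, 1.62 and 1.64 in PTPRZ-Si, against 1.69, 1.64 and 1.63 in PTPRZ-nc, and these overlapped. The annotation has 51 pseudogenes of KRT8 and 67 of KRT18, with 1434 and 139 counts over the 6 libraries, and the 2 genes share 525 exon bases on opposite strands, so their levels are uncertain where reads could not be placed.

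KRT19, keratin 19, the smallest keratin, known from ductal epithelia, had 7.10, 5.85 and 4.67 CPM in PTPRZ-Si, against 3.27, 4.23 and 2.88 CPM in PTPRZ-nc. The groups were apart by little, since PTPRZ-Si library 3 was close to PTPRZ-nc library 2. The log2 fold change was 0.76 ± 0.20 SE (edgeR adjusted p = 0.00976), and without PTPRZ-Si library 1 it was no longer called (adjusted p = 0.0585). KRT7, keratin 7, the type II keratin often found with it, had 2.71, 3.12 and 3.41 CPM in PTPRZ-Si, against 3.15, 5.62 and 3.83 CPM in PTPRZ-nc. These overlapped and did not pass (log2 fold change -0.42 ± 0.23 SE, edgeR adjusted p = 0.184).

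VIM, vimentin, the filament protein of mesenchymal cells that clear cell carcinomas also carry, was lower, while KRT8, KRT18 and KRT19 were higher. It had 812, 755 and 792 CPM in PTPRZ-Si, against 1193, 1127 and 1218 CPM in PTPRZ-nc, with no overlap (log2 fold change -0.58 ± 0.039 SE, edgeR adjusted p = 8.69e-09). Not all keratins rose, since KRT7 did not pass. Of 6 tested keratins outside the 35 genes, 2 were higher and 1 was lower (KRT80, log2 fold change -0.50). The TPM ratio of KRT8 to VIM ran between 1.21 and 1.29 in the PTPRZ-Si libraries and between 0.712 and 0.824 in the PTPRZ-nc libraries, with no overlap. This ratio was not tested and follows from the fold changes of KRT8 and VIM. In bulk RNA, a change in the share of cells that make a transcript and a change in the amount per cell cannot be told apart.

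**Figure D3:**
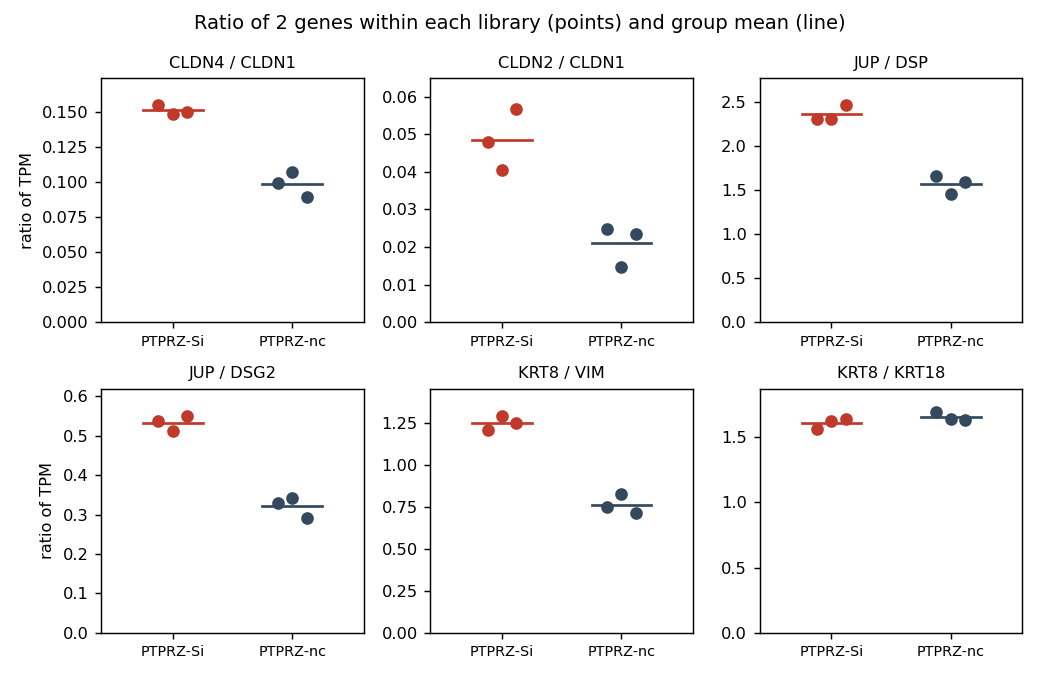
Ratio of the TPM values of 2 genes within each library (points) with the group mean (line), n = 3 each. All ratios but KRT8 to KRT18 are higher in all 3 PTPRZ-Si libraries. In each of those the numerator was called higher and the denominator lower, so they follow from the fold changes.

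Of the 4 polarity genes, 2 were higher and 0 were lower. PARD3, PAR3, the scaffold that places the PAR complex at the tight junction, had 134, 135 and 139 CPM in PTPRZ-Si, against 110, 123 and 114 CPM in PTPRZ-nc. PARD6B, PAR6 beta, the adaptor that carries atypical protein kinase C in the same complex, had 16.9, 16.6 and 15.8 CPM in PTPRZ-Si, against 11.4, 9.78 and 12.8 CPM in PTPRZ-nc. Both were higher in every PTPRZ-Si library, by 0.24 ± 0.050 and 0.53 ± 0.11 on the log2 scale (edgeR adjusted p = 0.00181 and 0.0015). LLGL2, a basolateral Lethal giant larvae protein that opposes the PAR complex, averaged 55.5 ± 1.4 CPM in PTPRZ-Si and 55.0 ± 1.76 CPM in PTPRZ-nc (SD, n = 3), and the 95% interval of its log2 fold change was -0.11 to 0.14. CRB3, the Crumbs protein of simple epithelia, was near 1 CPM with 1.39, 1.15 and 0.327 CPM in PTPRZ-Si, against 0.583, 0.657 and 0.959 CPM in PTPRZ-nc, and no difference was detectable.

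The catenins, which tie cadherins to the cell's interior, gave 1 borderline call. CTNND1, p120-catenin, which holds cadherins at the surface, had 10.8, 8.96 and 11.4 CPM in PTPRZ-Si, against 12.0, 13.3 and 13.8 CPM in PTPRZ-nc. It was lower with no overlap (log2 fold change -0.33 ± 0.12 SE, edgeR adjusted p = 0.0488), but missed the threshold in 10 of 14 alternative fits, with adjusted p of 0.05 to 0.26. CTNNA1, alpha-catenin, the link from cadherin complexes to actin, had 489, 469 and 453 CPM in PTPRZ-Si, against 433, 461 and 436 CPM in PTPRZ-nc. PTPRZ-nc library 2 lay above PTPRZ-Si library 3, and the log2 fold change of 0.09 ± 0.041 SE passed without it (edgeR adjusted p = 0.141 with all libraries and 0.0196 without PTPRZ-nc library 2; 0.12 to 0.492 without any other single library).

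Per length, KRT8 and KRT18 led the order of levels, while KRT19 and KRT7 were at ranks 21 and 23 of 35. KRT8 averaged 834 ± 12.5 TPM in PTPRZ-Si and 767 ± 22.3 TPM in PTPRZ-nc, and KRT18 519 ± 15.7 TPM in PTPRZ-Si and 463 ± 16 TPM in PTPRZ-nc (SD, n = 3). CLDN1 came next with 306 ± 8.17 TPM in PTPRZ-Si and 406 ± 21 TPM in PTPRZ-nc, then CTNNA1 with 233 ± 9.3 TPM in PTPRZ-Si and 222 ± 7.25 TPM in PTPRZ-nc, and then DSG2 with 109 ± 1.5 TPM in PTPRZ-Si and 141 ± 11.7 TPM in PTPRZ-nc (SD, n = 3 each). In the middle of the list the order differed between the groups. F11R, CLDN12, PKP4, JUP and CLDN4 followed each other in PTPRZ-nc with 57.1, 53.5, 45.8, 45.2 and 39.8 TPM, where PKP4 and JUP were within their SD. In PTPRZ-Si, JUP was the highest of these 5 with 58.0 TPM, PKP4, CLDN4 and CLDN12 lay between 45.5 and 47.9 TPM, each within an SD of its neighbour, and F11R was the lowest with 36.3 TPM. CGNL1 stood above DSP in PTPRZ-Si (38.0 ± 1.94 and 24.6 ± 0.9 TPM) and below it in PTPRZ-nc (22.3 ± 1.91 and 28.8 ± 1.24 TPM; SD, n = 3).

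**Figure D4:**
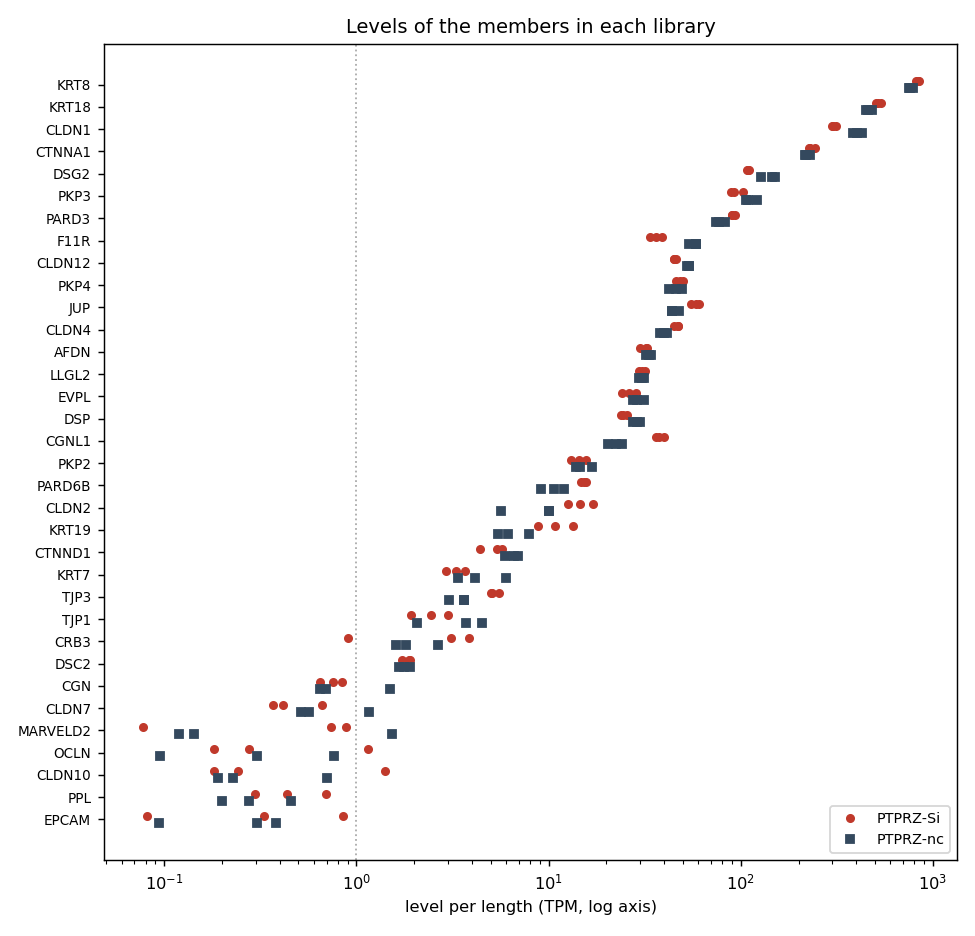
Level per length (TPM, log axis) of the 34 genes with a count, in each library, ordered by the PTPRZ-nc mean. KRT8 leads in both groups, and some of the lowest genes, such as MARVELD2, scatter over about a factor of 10 between libraries of 1 group.

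Summed per structure, tight junction membrane genes had 450, 459 and 442 TPM in PTPRZ-Si, against 562, 547 and 592 TPM in PTPRZ-nc. Most of that sum is CLDN1. Scaffold genes summed to 78.6, 74.3 and 80.7 TPM in PTPRZ-Si, against 62.1, 65.3 and 62.9 TPM in PTPRZ-nc, polarity genes to 140 ± 1.8 TPM in PTPRZ-Si and 121 ± 4.88 TPM in PTPRZ-nc, and keratins to 1368 ± 26.1 TPM in PTPRZ-Si and 1241 ± 39.1 TPM in PTPRZ-nc (SD, n = 3). Desmosome genes summed to 377 ± 15 TPM in PTPRZ-Si and 420 ± 3.83 TPM in PTPRZ-nc. In each of these 5 sums the groups did not overlap. The catenin sum overlapped, with 249, 234 and 231 TPM in PTPRZ-Si, against 222, 236 and 227 TPM in PTPRZ-nc, as did EPCAM alone. The sums were not tested. The scaffold, polarity and keratin sums also rest on few genes. CGNL1 gave 38.0 TPM of the scaffold sum in PTPRZ-Si and 22.3 TPM in PTPRZ-nc. PARD3 gave 91.2 TPM of the polarity sum in PTPRZ-Si and 78.1 TPM in PTPRZ-nc. Most of the keratin sum is KRT8 and KRT18.

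Another 126 genes of the same structures and their known regulators were counted beside the 35. Of these, 72 were tested, 13 were higher, 12 were lower and 47 did not pass, so 34.7% were called, against 27.4% of all tested genes. Their median log2 fold change was -0.01. As for the 35 genes, both directions were found in tight junction genes (2 higher and 3 lower of 17) and adherens junction genes (2 higher and 3 lower of 14). In the fit of only the genes averaging at least 5 CPM, 12 of the wider genes were higher and 11 were lower. The share of all genes called in that fit was also larger, at 37.1%.

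Among tight junction genes, LSR, angulin-1, which brings tricellulin to cell corners, had 19.9, 21.9 and 21.4 CPM in PTPRZ-Si, against 32.3, 32.5 and 32.1 CPM in PTPRZ-nc (log2 fold change -0.61 ± 0.074 SE, edgeR adjusted p = 9.04e-06). MARVELD1 was lower too (-0.21, edgeR adjusted p = 0.00225). The scaffold MAGI1 and the angiomotin AMOT were higher, with log2 fold changes of 0.52 and 0.32 (edgeR adjusted p = 0.00022 and 0.00532). PLEKHA7, which binds p120-catenin and paracingulin at the apical adherens belt, had 63.9, 60.6 and 62.6 CPM in PTPRZ-Si, against 42.6, 41.2 and 44.8 CPM in PTPRZ-nc (log2 fold change 0.54 ± 0.060 SE, edgeR adjusted p = 3.69e-06). It was thus higher beside CGNL1, to which it binds, and beside a borderline lower CTNND1.

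Among adherens junction genes, the actin binder LIMA1 was higher (0.23, edgeR adjusted p = 0.00164), while the beta-catenin inhibitor CTNNBIP1 and the nectin NECTIN2 were lower (-0.66 and -0.17, edgeR adjusted p = 0.000845 and 0.0203). NECTIN2 was no longer called without PTPRZ-Si library 1 or 2 (adjusted p = 0.053 and 0.106). CDH3, P-cadherin, had a larger fall at a low level, with 0.626, 1.29 and 0.607 CPM in PTPRZ-Si, against 2.92, 1.82 and 1.38 CPM in PTPRZ-nc (log2 fold change -1.24 ± 0.38 SE, edgeR adjusted p = 0.0204). It was named after its values were seen, and it was no longer called without PTPRZ-Si library 1 or 3 or PTPRZ-nc library 1 (adjusted p = 0.0745, 0.0973 and 0.153). CDH2, N-cadherin, a classical cadherin also made by kidney tubules, had 200, 189 and 196 CPM in PTPRZ-Si, against 213, 194 and 219 CPM in PTPRZ-nc. These overlapped (log2 fold change -0.10, edgeR adjusted p = 0.147, 0.00598 without PTPRZ-nc library 2 and 0.176 to 0.396 without any other single library). CTNNB1, beta-catenin, averaged 351 ± 8.45 CPM in PTPRZ-Si and 351 ± 16.1 CPM in PTPRZ-nc (SD, n = 3), with a 95% interval of -0.09 to 0.09 on the log2 scale. CDH1, E-cadherin, had 3, 17 and 9 counts in PTPRZ-Si, against 4, 4 and 9 counts in PTPRZ-nc, and was not tested.

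Desmosome, keratin and polarity partners were mixed. PERP, a membrane protein of desmosomes, was lower along with DSG2 (130, 134 and 123 CPM in PTPRZ-Si, against 170, 150 and 172 CPM in PTPRZ-nc; log2 fold change -0.35 ± 0.055 SE, edgeR adjusted p = 0.000137). The plakin DST was higher (0.23, edgeR adjusted p = 0.000734) and the plakin PLEC lower (-0.16, edgeR adjusted p = 0.0279). KRT80 was lower, with 125, 117 and 117 CPM in PTPRZ-Si, against 170, 166 and 169 CPM in PTPRZ-nc (log2 fold change -0.50 ± 0.046 SE, edgeR adjusted p = 4.05e-07), while KRT15 and the scarce hair keratin KRT86 were higher (0.40 and 1.37, edgeR adjusted p = 8.39e-05 and 0.0363). SCRIB, the basolateral scaffold, had 18.7, 26.4 and 30.5 CPM in PTPRZ-Si, against 52.2, 34.8 and 33.2 CPM in PTPRZ-nc, where PTPRZ-nc library 1 was the highest (log2 fold change -0.65 ± 0.16 SE, edgeR adjusted p = 0.00495). DLG3 was lower (-0.21, edgeR adjusted p = 0.0127), and the kinase MARK2 and the Crumbs protein CRB2 were higher (0.24 and 1.69, edgeR adjusted p = 0.00931 and 0.00928), CRB2 at 1.14 ± 0.34 CPM in PTPRZ-Si and 0.330 ± 0.134 CPM in PTPRZ-nc (SD, n = 3). Calls were lost for PLEC without PTPRZ-Si library 1 or 2 (adjusted p = 0.0865 and 0.107), for KRT86 without PTPRZ-Si library 1 or 2 or PTPRZ-nc library 1 or 2 (adjusted p of 0.101 to 0.144), for CRB2 without PTPRZ-Si library 1 (0.0547), for MARK2 and DLG3 without PTPRZ-Si library 3 (0.0679 and 0.082), and for SCRIB with DESeq2 (0.0768).

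**Figure D5:**
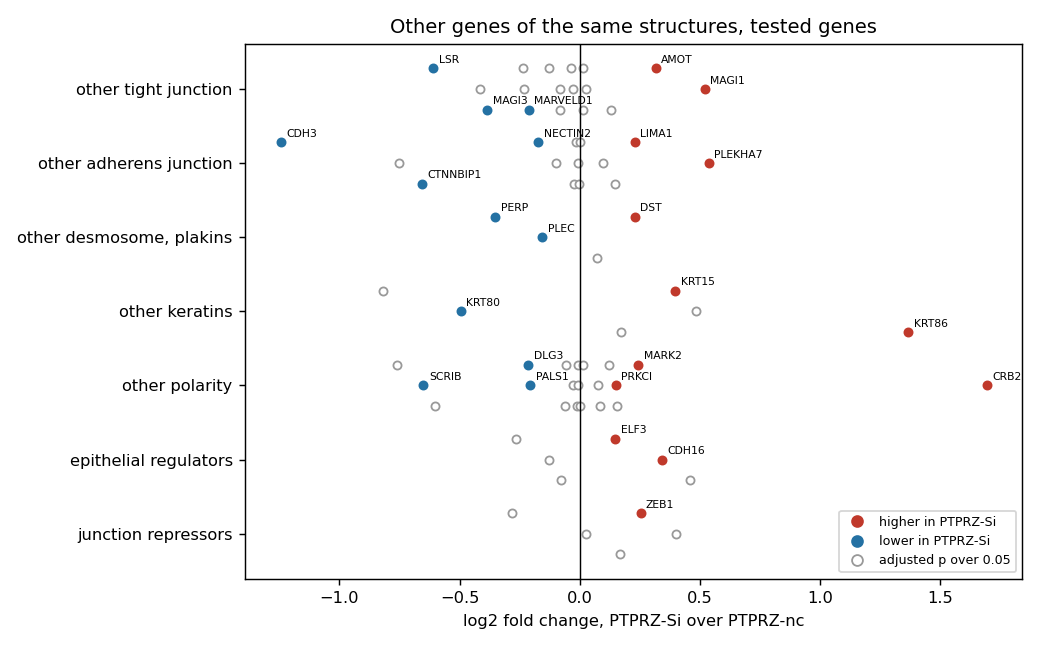
Log2 fold change of PTPRZ-Si over PTPRZ-nc for the 72 tested genes of the wider lists (points; filled points passed an adjusted p of 0.05 in edgeR). In tight junction, adherens, desmosome, keratin and polarity lists called genes lie on both sides of 0.

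Of the regulators, 2 of 6 tested epithelial factors (33.3%) and 1 of 5 tested junction repressors (20%) were higher, and 0 were lower. Of all tested genes, 27.4% were called, 14% higher and 13.4% lower. The other 4 tested repressors did not pass. The epithelial factor ELF3 and the kidney cadherin CDH16 were higher by 0.15 and 0.34 on the log2 scale (edgeR adjusted p = 0.0267 and 0.0188). ELF3 was no longer called without PTPRZ-nc library 1 or any one PTPRZ-Si library (adjusted p of 0.0531 to 0.151), nor CDH16 without PTPRZ-Si library 1 or 2 (0.0682 and 0.0533). ZEB1, a repressor of junction genes, had 38.1, 35.7 and 35.3 CPM in PTPRZ-Si, against 33.8, 25.5 and 31.7 CPM in PTPRZ-nc. The groups were apart, with PTPRZ-nc library 2 the lowest (log2 fold change 0.25 ± 0.088 SE, edgeR adjusted p = 0.0417), and the call was lost on leaving out any library but PTPRZ-nc library 1 (adjusted p of 0.0565 to 0.151). SNAI2, Slug, a repressor of the same kind, averaged 8.32 ± 0.805 CPM in PTPRZ-Si and 6.25 ± 1.43 CPM in PTPRZ-nc (SD, n = 3) and did not pass (log2 fold change 0.40, edgeR adjusted p = 0.0801). GRHL2 and OVOL2, transcription factors that maintain the epithelial state, were at 0 in all 6 libraries, and the splicing factors ESRP1 and ESRP2 had 24 and 23 counts summed over PTPRZ-Si, against 11 and 12 counts over PTPRZ-nc, too few to test.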

How the data were processed

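PTPRZ-Si and PTPRZ-nc libraries of A498 RNA were compared, 3 each, with groups and replicate numbers taken from the labels. The authors deposited raw counts of read pairs per gene, not normalized; per the file headers they come from featureCounts 2.0.1, run without a strand option on exons of the Ensembl 107 annotation of GRCh38. By that program's default, pairs with several placements or several genes are left out, which lowers genes with copies or overlaps. No source used here gives the version of the aligner.

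Gene symbols came from a gene name table, coordinates and exon lengths from GENCODE 29 (GRCh38), and promoter sequences from RefSeq (GRCh38.p14). Lengths were planned to come with the counts and were taken from GENCODE instead. Genes were filtered with filterByExpr, which left 15476 genes holding 99.82% of the counts, scaled by TMM and tested with edgeR 4.0.16 (R 4.3.3; glmQLFit and glmQLFTest, 2-sided, Benjamini-Hochberg over all tested genes). The coefficient of variation beyond counting was 5.53%. CPM values carry TMM scaling, TPM values use exon lengths, and limits for 0 counts use 3 counts and cover counting error only. No pair of libraries in a group agreed within sampling noise, and each was counted as 1 sample. That spread does not show that the libraries came from separate cultures.

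Alternatives were DESeq2 1.42.0, limma-voom (limma 3.58.1), DESeq2 size factors and upper quartile scaling in edgeR, no filter, a mean of at least 5 CPM, a replicate block, and leaving out each library or both libraries numbered 2. The 35 genes, the wider lists, the marker lists and the tests were chosen with earlier results of these data known. Values in every library are given for genes called at 1.25-fold or at a level of 50 TPM and for their structural partners. Of the wider lists, up to 4 called genes each with the smallest p and a fixed few by role are named. CDC42, CDH3, CLDN15 and CLDN23 are named in addition.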

Additional observations from a re-analysis of the deposited data

How the results depend on the processing

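Of the 17 called genes, 12 passed in all 14 alternative fits (CLDN1, CLDN2, CLDN12, F11R, CGNL1, DSP, JUP, DSG2, KRT8, KRT18, PARD3 and PARD6B); the others lost their call as given with their values. The 35 genes had 8 to 11 higher and 5 to 7 lower when 1 library was left out, with 3 to 5 higher and 1 to 2 lower at 1.5-fold, and all genes 3182 to 4425 calls. With a mean of at least 5 CPM, 2 genes were higher at 1.5-fold, since TJP3 and KRT19 were not tested there. The wider lists had 8 higher with DESeq2, and 7 to 13 higher and 9 to 14 lower with 1 library left out, 7 without PTPRZ-Si library 1 and 8 without PTPRZ-Si library 2. The cause was not tested.

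Log2 fold changes that changed sign were all uncalled. MARVELD2 was 0.091 with limma-voom, 0.055 with the replicate block, and -0.78 (without PTPRZ-Si library 3) to 2.02 (without PTPRZ-nc library 3) with 1 library left out, with 0.36 without PTPRZ-Si library 2. CGN ran from -0.51 to 0.18 and was above 0 without PTPRZ-nc library 2, and was 0.18 without both libraries numbered 2. PKP2 ran from -0.12 to 0.018 and was above 0 without PTPRZ-Si library 3 (0.0071) and PTPRZ-nc library 2, and was 0.0059 without both libraries numbered 2, where DSC2 was -0.020. CRB3 ran from -0.011 (without PTPRZ-Si library 1) to 0.76, and LLGL2 from -0.0071 (the same library) to 0.035, with -0.0069 without PTPRZ-nc library 1. CTNNB1 was -0.00078 with DESeq2 and -0.0055 with no filter, and ran from -0.024 (without PTPRZ-nc library 1) to 0.037, with -0.020 without PTPRZ-Si library 3 and -0.012 without PTPRZ-nc library 3.

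Replicate numbers are not said to mark a shared culture, and deviations of same-numbered libraries correlated at 0.0271, 0.0333 and 0.0226, though each library correlated best with its own number. With the replicate block, 10 of the 35 genes were higher and 6 lower, the wider lists had 11 higher and 12 lower, and 4101 genes were called in all, against 4243 without it. CTNND1 and KRT86 missed the threshold under the block (edgeR adjusted p = 0.0502 and 0.0507).

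Depth limits genes near 1 CPM (MARVELD2, CGN, PPL, CRB3): PPL did not pass at an estimate of 1.58-fold (edgeR adjusted p = 0.318). Sums per structure on TMM-scaled CPM per kilobase kept their direction.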
